A study of Arabidopsis thaliana with 7 samples.

Results

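The plastid genome of Arabidopsis thaliana encodes genes for transcription, translation and a few other housekeeping functions beside its photosynthesis genes. The probe sets studied here were those whose annotated gene lies on the plastid genome and has a symbol starting with rpo, rps, rpl or ycf, or is matK, accD or clpP. This rule uses names and position, not measured values, and it found 31 of the 22746 probe sets on the array, standing for 30 genes. They comprised 4 polymerase, 20 ribosomal and 7 other probe sets, and rps12 was measured by 2 of them (244939_at and 244940_at). Of the 31, 24 were paired with 1 gene ID. The other 7 (rpl2, rpl23, rps7, ycf1, ycf2 and both of rps12) listed several IDs of 1 symbol, which are copies or parts of a single plastid gene, and were kept.

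The study profiled total RNA of whole seedlings on 7 one-colour arrays, in search of targets of SOC1, a floral promoter of the MADS-box family. Col, the Columbia wild type, had 3 arrays. The mutant soc1-101D, a gain of function that flowers early, also had 3, and soc1-2, a knock-out that flowers late, had 1. Both mutants are in the Col background. All seedlings were 7 days past germination and had been kept at 21 °C with 16 h of light and 8 h of dark. The labels number 3 experiments, each with a Col and a soc1-101D array, and the soc1-2 array belongs to experiment 3. Each mutant is a single allele. No probe set was named as SOC1 in the annotation used, so its level was not checked.

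As background, plastid genes are transcribed by a bacterial-type polymerase and by phage-type polymerases. The core of the first, its alpha, beta, beta-prime and beta-double-prime subunits, is encoded in the plastid by rpoA, rpoB, rpoC1 and rpoC2. Its sigma factors and the phage-type enzymes come from the nucleus, and the rpoB gene group and accD are classic targets of a phage-type enzyme. The rps and rpl genes encode small- and large-subunit proteins of the bacterial-type plastid ribosome, whose other proteins are nuclear-encoded. Many plastid genes are transcribed together with their neighbours and then processed.

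Across the 13648 tested probe sets, the correlation (r) between arrays was 0.954 to 0.983 within experiments and 0.824 to 0.929 across them. Values below are scaled intensities (each array set to a common median of 192.7) or differences of log2(scaled intensity + 19.3), where ± is the SE of the limma fit. Tests are limma with genotype and experiment as terms, Benjamini-Hochberg adjusted over the 13648 probe sets, and a probe set was called at an adjusted p under 0.05. Of the members, 30 were bright enough to be tested. The exception was ycf2, a gene for a large ATPase-like protein, which read 130, 127 and 64.5 in Col, 121, 93.4 and 47.0 in soc1-101D (experiments 1, 2 and 3) and 92.9 in soc1-2. In whole seedlings, fewer plastid-rich cells, fewer plastids per cell and less RNA per plastid cannot be told apart. How the RNA was primed for labelling was not given, so a difference in signal need not be a difference in the amount of plastid RNA.

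The first comparison asked whether these genes differed when SOC1 was overactive. None of the 30 tested members was called in soc1-101D against Col, where 0.542% of all tested probe sets were called (limma, smallest adjusted p among members 0.256, for rpl20; 0.271% were higher and 0.271% lower). At an unadjusted p under 0.05 there were 7 of 30 members and 1504 of 13648 probe sets. The direction depended on the experiment. In experiment 1 all 31 members were lower in soc1-101D (median log2 difference −0.51), in experiment 2 22 were higher and 9 lower (median 0.18), and in experiment 3 26 were lower and 5 higher (median −0.66). Of all tested probe sets 59.5%, 49.4% and 48.7% were lower in the same pairs. The median over the 31 members of their mean difference was −0.25 and was −0.51 without experiment 2. Members lower in all 3 experiments numbered 6 of 30 (accD, clpP, rpl20, rps3, rpl22 and rps19), near the background of 18.3%, and none was higher in all 3 (background 14.5%). For no member did the 3 soc1-101D values all lie below (background 2.42%) or all above (background 1.71%) the 3 Col values.

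**Figure D1:**
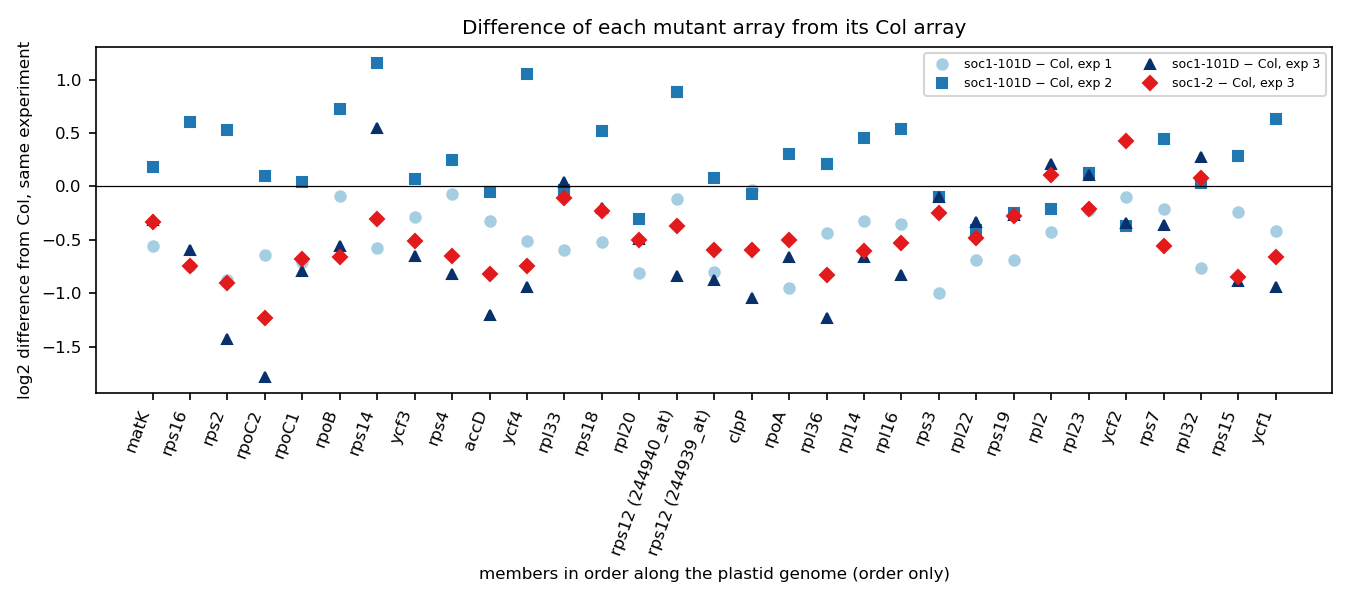
Log2 difference of each mutant array from the Col array of the same experiment (y axis) for the 31 members in their order along the plastid genome (x axis, order only). Points for soc1-101D in experiment 1 all lie below 0, those of experiment 2 lie mostly above 0, and those of soc1-101D and soc1-2 in experiment 3, which share 1 Col array, lie mostly below it.

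Among the polymerase genes, rpoC2 (beta-double-prime subunit) had the lowest fitted difference of any member in soc1-101D. In experiments 1, 2 and 3 its Col values were 616, 345 and 773, and its soc1-101D values were 389, 370 and 211. The Col and soc1-101D ranges overlapped, since the soc1-101D values of experiments 1 and 2 exceeded the Col value of experiment 2. Its differences were −0.64, 0.10 and −1.79 in experiments 1, 2 and 3 (fitted −0.78 ± 0.31, limma adjusted p = 0.418). The gene for the beta-prime subunit, rpoC1, had a fitted difference of −0.49 ± 0.19 (limma adjusted p = 0.413). Its Col mean was 2007 ± 595 and its soc1-101D mean 1381 ± 85.8 (SD over 3 arrays). For rpoA, the alpha subunit, the fitted difference was −0.43, with pair differences of −0.95, 0.30 and −0.66. The beta subunit gene rpoB was at 0.03 ± 0.24, with pair differences of −0.09, 0.73 and −0.55. Each of the 4 polymerase genes was thus lower in soc1-101D in experiments 1 and 3 and higher in experiment 2, and none passed the test. For rpoC1 the difference in experiment 2 was only 0.04. The same order of signs held for 19 of the 30 tested members, these 4 included. Its share over all tested probe sets was not computed.

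Of the 20 ribosomal probe sets, 18 had a negative fitted difference in soc1-101D, between −0.59 and −0.02, and none was called. The lowest were rps2 (−0.59 ± 0.33), rpl20 (−0.54 ± 0.16) and the rps12 probe set 244939_at (−0.53). The rps2 gene lies next to rpoC2 and encodes a small-subunit protein. It read 3527, 1197 and 3907 in Col and 1912, 1737 and 1440 in soc1-101D, so that Col varied by over 3-fold while soc1-101D stayed between its extremes. Without experiment 2 rps2 was the 1 member that passed in soc1-101D (−1.15 ± 0.21, limma adjusted p = 0.0385, against 0.587 with all experiments). In that fit, with 1 residual degree of freedom, 0.733% of all tested probe sets were called. It leaves out the experiment in which rps2 was higher in soc1-101D (0.53). The large-subunit gene rpl20 was lower in all 3 pairs, with differences of −0.81, −0.30 and −0.49. The highest fitted differences were those of rps14 (0.38 ± 0.29), rpoB and rpl23 (0.0053). The small-subunit gene rps14 differed by −0.57, 1.16 and 0.55, and its Col value of experiment 2, 48.1, was the lowest of its 7.

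The 6 other members that were tested had fitted differences between −0.53 (accD) and −0.13 (ycf4) in soc1-101D, none called. The gene accD encodes a carboxyltransferase subunit of the acetyl-CoA carboxylase that feeds fatty acid synthesis, and its pair differences were −0.32, −0.06 and −1.21. For clpP, a catalytic subunit of the Clp protease, they were −0.03, −0.07 and −1.04. The photosystem I assembly gene ycf4 was at −0.51, 1.05 and −0.94. In experiment 3, 5 members (rpoC2, rps2, rpl36, accD and clpP) were at least 2-fold lower in soc1-101D, where 0.718% of tested probe sets were. In experiment 2, 2 members (rps14 and ycf4) were at least 2-fold higher, where 1.68% of tested probe sets were. No other member reached 2-fold in any pair, and these single pairs have no replicate.

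The second comparison concerned the loss of SOC1. On the single soc1-2 array 28 of 31 members were below the Col array of experiment 3, with a median log2 difference of −0.53 (all tested probe sets −0.02, 53.6% below). The exceptions were ycf2 (0.42), rpl2 (0.11) and rpl32 (0.08). Only rpoC2 was at least 2-fold lower (773 in Col, 318 in soc1-2, log2 −1.23), where 0.139% of tested probe sets were at least 2-fold lower. No member was at least 2-fold higher, where 0.674% of tested probe sets were. After rpoC2, the lowest were rps2 (−0.91) and rps15 (−0.85), both small-subunit genes. In the limma fit, which takes its spread from the other pairs, 0% of tested probe sets and none of the members were called (1 of 30 members and 387 of 13648 probe sets at an unadjusted p under 0.05). The lone soc1-2 array is assumed there to vary like the others. Through the experiment term, the baseline of that fit also draws on the other arrays, so the plain differences above were not what it tested. Its median difference over the 30 tested members was −0.37, and its difference for rpoC2 was −0.73 ± 0.50.

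Both mutant differences in experiment 3 use the same Col array, so they are not separate observations. That Col array was the highest of the 3 arrays of experiment 3 for 25 of 31 members, against 32.8% of all tested probe sets. Set against soc1-101D of the same experiment, with no Col array involved, soc1-2 was higher for 17 members and lower for 14, with a median log2 difference of 0.05 and none beyond 2-fold. For rpoC2 the 2 mutants read 211 (soc1-101D) and 318 (soc1-2), for rpoC1 1306 and 1412, for rpoA 3835 and 4278 and for rpoB 70.5 and 64.1. For every member the gain- and the loss-of-function array of experiment 3 differed by less than 2-fold, with no replicate to test a difference. Against the mean of the 3 Col arrays the soc1-2 median was −0.12 in place of −0.53, and 2 members were at least 2-fold lower.

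**Figure D2:**
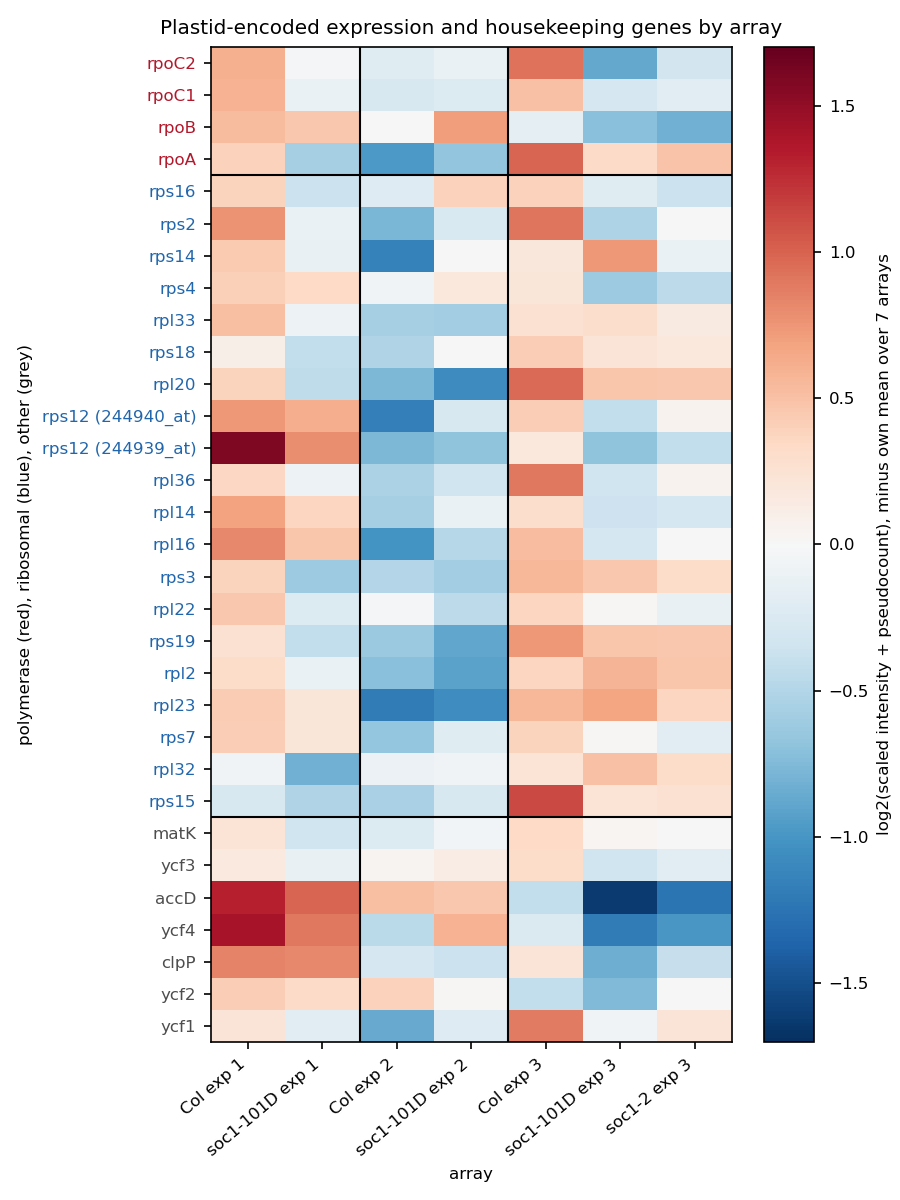
Log2 level of each member on each of the 7 arrays, relative to its own mean over the arrays (colour, red above and blue below), with members grouped by class. The Col arrays of experiments 1 and 3 are mostly red and the Col array of experiment 2 mostly blue. The genes accD and ycf4 go from red in experiment 1 to blue on every array of experiment 3, Col included.

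The third comparison set the 3 numbered experiments against each other with genotype held. The SD of log2 values over the 7 arrays had a median of 0.59 over the 30 tested members and 0.37 over all tested probe sets, and 25 of the 30 lay above the latter. The plastid-encoded photosynthesis genes were alike, with a median of 0.60 and 33 of 43 above it. In at least 1 pair of experiments 18 of 30 members were called, close to the 56.9% of all tested probe sets, a share near the background. What differed between the experiments is not in the labels. The 3 pairs share arrays, and their results are not independent.

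In experiment 2 against experiment 1, 11 of 30 members fell and none rose, where 32.6% of all tested probe sets were called, 16% lower and 16.6% higher. The 11 were 10 ribosomal probe sets and clpP. Both Col and soc1-101D were lower for 22 of 31 members and both higher for none (38.5% and 38.2% of all tested probe sets). In Col the median log2 difference was −0.90, with all 31 lower, and in soc1-101D it was −0.21, with 22 lower; this gap was not tested. The members with the highest fitted differences were rpl32 (0.36), rps16 (0.08) and ycf3 (0.07), none called. The count of called members was 3 without Col of experiment 1, 4 without Col of experiment 2 and 20 without soc1-101D of experiment 2. It was 6 among the 24 members with 1 gene ID.

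In experiment 3 against experiment 2, 8 members rose and 1, accD, fell, where 24.5% of all tested probe sets were called, 16.7% higher and 7.79% lower. Both genotypes were higher for 16 of 31 members and lower for 3 (50% and 27.3% of all tested probe sets). In experiment 3 against experiment 1, 4 rose and 5 fell (background 40.1%, 25.9% higher and 14.3% lower), and both genotypes were higher for 12 of 31 and lower for 12 (50% and 31.7%). Scaling to the common median placed the median of all tested probe sets 0.15 and 0.16 higher in experiment 3 than in experiments 2 and 1, and the deposited values unscaled placed it −0.03 and 0.01 away. With no further scaling 6 members rose and 1 fell against experiment 2, and 2 rose and 5 fell against experiment 1. The members' median against experiment 1 was 0.07 under the common median, −0.08 with no further scaling and −0.11 with quantile normalization, so its sign depended on the scaling. Of all called probe sets, 68.3% and 64.4% were higher in experiment 3 under the common median, 44.1% and 50.7% with no further scaling, and 50.2% and 54.3% with quantile normalization. The count of members that rose against experiment 2 was 4 without Col of experiment 3, 5 without Col of experiment 2 and 17 without soc1-101D of experiment 2. The count that rose against experiment 1 was 0 without soc1-101D of experiment 1 and 1 without Col or without soc1-101D of experiment 3, and the count that fell was 3 without Col or without soc1-101D of experiment 1 and 2 without soc1-101D of experiment 3. The call of accD against experiment 2 was lost without soc1-101D of experiment 3, and 3 members fell there without Col of experiment 2.

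**Figure D3:**
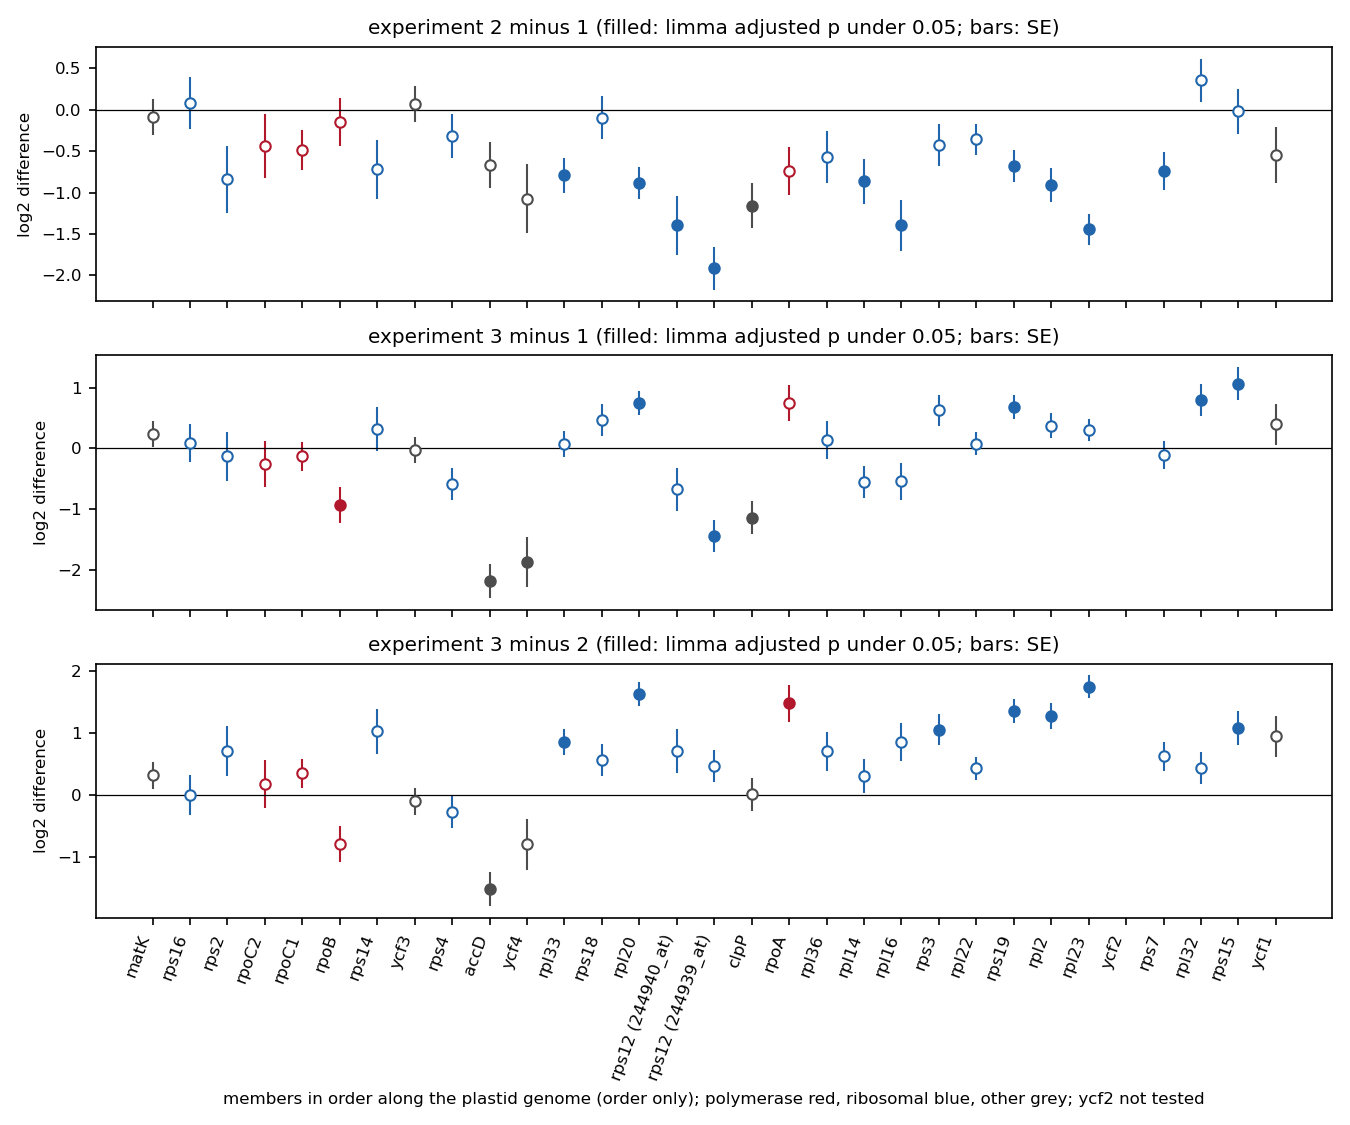
Log2 differences between experiments with genotype held (points, with bars for the limma SE) for the 30 tested members in their order along the plastid genome, filled where the limma adjusted p was under 0.05. Called ribosomal members lie below 0 for experiment 2 minus 1 and above 0 for experiment 3 minus 2, and accD lies below 0 in both comparisons with experiment 3.

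All 4 polymerase genes had negative fitted differences in experiment 2 against 1, from −0.74 (rpoA) to −0.15 (rpoB), none called. The alpha subunit gene rpoA read 3996 and 2061 (Col and soc1-101D) in experiment 1 and 1542 and 1907 in experiment 2. In experiment 3 it read 6059 and 3835, with 4278 in soc1-2. All 3 arrays of experiment 3 were above both arrays of experiment 2, and rpoA rose by 1.48 ± 0.29 (limma adjusted p = 0.0141, called in 9 of 11 alternatives and lost without Col of experiment 3, 1.31). Against experiment 1 it was not called (limma adjusted p = 0.0777). The beta subunit gene rpoB read 194 and 182 in experiment 1, 127 and 222 in experiment 2 and 112.5, 70.5 and 64.1 in experiment 3. The 3 arrays of experiment 3 were its 3 lowest, and it was lower by −0.93 ± 0.29 than in experiment 1 (limma adjusted p = 0.037, and called in 5 of 10 alternatives, with −0.49 without soc1-101D of experiment 3). Against experiment 2 it was not called (limma adjusted p = 0.0859). The difference between rpoA and rpoB was not tested. Its neighbours rpoC1 and rpoC2 were not called in any pair of experiments, with fitted differences between −0.49 and 0.36. In the RefSeq gene order of the assembly TAIR10.1, rpoB, rpoC1, rpoC2 and rps2 lie side by side, while rpoA lies apart from them at the end of a run of ribosomal genes.

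That run (rpoA, rpl36, rpl14, rpl16, rps3, rpl22, rps19, rpl2 and rpl23, with genes between them that were not analysed here) held 5 of the 8 members that rose from experiment 2 to 3, where 16.7% of all tested probe sets rose. It was picked out after the values had been seen. All 9 of its members were positive in that comparison, from 0.31 (rpl14) to 1.75 (rpl23). The large-subunit gene rpl23 read 10544.5 and 9043 in experiment 1 and 3420 and 3746 in experiment 2. In experiment 3 it read 11624 and 12516, with 10049 in soc1-2. The 2 arrays of experiment 2 stood below all others by over 2-fold. It was 2.72-fold lower in experiment 2 than in 1 (log2 −1.44 ± 0.19, limma adjusted p = 0.00149, called in all 10 alternatives) and 3.36-fold higher in experiment 3 than in 2 (1.75 ± 0.19, limma adjusted p = 0.0032).

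The adjacent genes rpl2 and rps19, for a large- and a small-subunit protein, had the same shape. The gene rpl2 read 19562 and 14591 in experiment 1, 9683 and 8382 in experiment 2, and 20363, 23635 and 21928 in experiment 3. Experiment 2 was lowest, with no overlap with the other experiments. It was 1.87-fold lower in experiment 2 than in 1 and 2.43-fold higher in experiment 3 than in 2 (limma adjusted p = 0.0148 and 0.00879). The first call was lost without Col of experiment 1 and the second without soc1-101D of experiment 3, and both with no filter on dim probe sets. For rps19 the values were 5057 and 3130, then 2705 and 2272, then 7040, 5843 and 5805. It differed by −0.68 ± 0.19 from experiment 1 to 2 and by 1.36 ± 0.19 from 2 to 3, and it was also higher in experiment 3 than in 1 (0.69, limma adjusted p = 0.0262). The last call was kept in 5 of 11 alternatives and was lost with quantile normalization and with no further scaling (limma adjusted p = 0.0781 and 0.0545), and the first was kept in 7 of 10 and lost without Col of experiment 1 (−0.46) or of experiment 2. The small-subunit gene rps3 rose from experiment 2 to 3 by 1.06 ± 0.25, called in 6 of 11 alternatives and lost with quantile normalization and without Col of experiment 2 or either Col or soc1-101D of experiment 3. Of the same run, rpl16 fell from experiment 1 to 2 by 1.40 on the log2 scale (called in 8 of 10 alternatives) and rpl14 by 0.86 (in 3 of 10, with −0.39 without Col of experiment 2). Neither passed from 2 to 3.

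A second run of neighbours, rpl33, rps18, rpl20, rps12 and clpP, also picked out after the values had been seen, had 5 of its 6 probe sets called lower in experiment 2 than in 1, where 16% of all tested probe sets were. Of the 5, 2 measure the same gene, rps12. Both rps12 probe sets list 2 gene IDs and were placed in the gene order by 1 of them. The exception was rps18, which lies between rpl33 and rpl20 (−0.09, limma adjusted p = 0.809). The large-subunit gene rpl20 read 439 and 242, then 189 and 149, then 671, 471 and 467 in experiments 1, 2 and 3. Every experiment 2 value was under every other value, and rpl20 was 3.10-fold higher in experiment 3 than in 2 (1.63 ± 0.19, limma adjusted p = 0.00423, called in 10 of 11 alternatives). Its fall from 1 to 2 (−0.88) and its rise from 1 to 3 (0.75) were each kept in 7 alternatives. On the other side of rps18, rpl33 fell by 0.79 from experiment 1 to 2 and rose by 0.86 from 2 to 3. The fall was lost without Col of experiment 1 (−0.49) or of experiment 2. The rise was kept in 5 of 11 alternatives, and was lost with quantile normalization and with no further scaling (limma adjusted p = 0.0756 and 0.0531) and without Col of experiment 2 or either Col or soc1-101D of experiment 3. The small-subunit gene rps12, whose transcript is joined from separate pieces by trans-splicing, fell in experiment 2 on both probe sets, by 1.91 ± 0.26 (244939_at) and 1.39 ± 0.36 (244940_at). The first stayed low in experiment 3 (−1.44 ± 0.26 against experiment 1, limma adjusted p = 0.00467), and the second differed there by −0.67 without passing the test. Both probe sets were lower in experiments 2 and 3 than in 1, and 244939_at was called in every alternative in both comparisons. The call of 244940_at was kept in 6 of 10, and without Col of experiment 2 its difference was −0.71 (limma adjusted p = 0.105).

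For clpP, which closes this run, the values were 11944 and 11705 in experiment 1, 5430 and 5159 in experiment 2, and 7704, 3726 and 5080 in experiment 3. Experiment 1 stood above all other arrays. The gene was 2.23-fold lower in experiment 2 and 2.20-fold lower in experiment 3 (limma adjusted p = 0.0155 and 0.0137). The first call was kept in 7 of 10 alternatives and lost without soc1-101D of experiment 1 or Col of experiment 2. The second was kept in 8 of 11, and it was lost without soc1-101D of experiment 1 or of experiment 3, where the difference was −0.64. Unlike those of rpl20 and rpl33 in the same run, its fitted difference between experiments 3 and 2 was 0.02.

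The widest range over the arrays among members was that of accD, 8.21-fold. It read 2125 and 1694 in experiment 1, 1210 and 1164 in experiment 2, and 623, 259 and 345 in experiment 3 (Col, soc1-101D and, in the last, soc1-2). No value of 1 experiment overlapped another experiment. The level in experiment 3 was 4.53-fold lower than in experiment 1 (log2 −2.18 ± 0.28, limma adjusted p = 0.0013, called in all 11 alternatives) and 2.85-fold lower than in experiment 2 (limma adjusted p = 0.0116, and 0.0652 without soc1-101D of experiment 3). Its neighbour among the members, ycf4, read 8079 and 5675, then 2218 and 4619, then 2557, 1325 and 1519. It was 3.65-fold lower in experiment 3 than in 1 (−1.87 ± 0.42, limma adjusted p = 0.0109, called in 8 of 11 alternatives). The call was lost with no filter, without Col of experiment 1, and without soc1-101D of experiment 3, where the difference was −1.26 (limma adjusted p = 0.0754).

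Other small members rose in experiment 3. The small-subunit gene rps15 read 391 and 329, 320 and 393, and then 1058, 564 and 578, so that every array of experiment 3 lay above the rest. It was 2.10-fold higher than in experiment 1 and 2.12-fold higher than in experiment 2, called in 7 and 6 of 11 alternatives. Without Col of experiment 3 the differences were 0.61 and 0.63, neither called, and the second call was also lost with quantile normalization and with no further scaling (limma adjusted p = 0.0632 and 0.063). The large-subunit gene rpl32 was 1.74-fold higher in experiment 3 than in 1, called in 5 of 11 alternatives (0.34 without soc1-101D of experiment 1). The small-subunit gene rps7 fell by 0.74 from experiment 1 to 2, called in 3 of 10 (−0.37 without Col of experiment 2). The members called in no pair were matK, ycf1, ycf3, rpoC1, rpoC2, rpl22, rpl36, rps2, rps4, rps14, rps16 and rps18. Of these, ycf3, another photosystem I assembly gene, and matK, a maturase that acts on group II introns, had the narrowest ranges over the 7 arrays (1.61-fold and 1.60-fold). The ycf1 gene, for a large protein of the inner envelope import machinery, ranged over 3.37-fold, and it was highest in Col of experiment 3 (4337.5) and lowest in Col of experiment 2 (1289).

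By class, each member's level was set against its own mean over the 7 arrays. The polymerase median was 0.56 in Col of experiment 1, 0.71 in Col of experiment 3 and between −0.50 and −0.08 on the other 5 arrays. The ribosomal median was 0.41 and 0.40 on those Col arrays and lowest on the arrays of experiment 2 (−0.60 in Col and −0.30 in soc1-101D). The median of the other members was 0.42 and 0.21 on the same Col arrays and lowest in soc1-101D of experiment 3 (−0.75). In soc1-101D of experiment 3 the ribosomal median was 0.12 and the polymerase median −0.50, and in soc1-2 the ribosomal, polymerase and other medians were 0.06, −0.25 and −0.19. In soc1-101D of experiment 1 the polymerase, ribosomal and other medians were −0.08, −0.11 and 0.33, so the classes also lay apart outside experiment 3. These are descriptions of single arrays, with members that are not replicates.

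**Figure D4:**
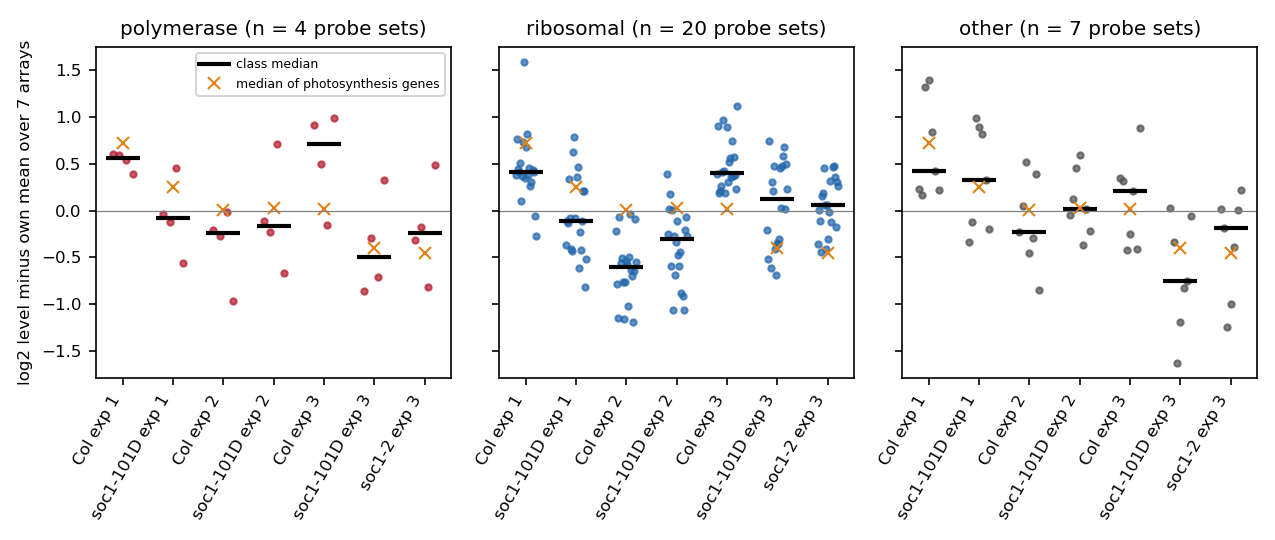
Level of each member on each array relative to its own mean over the 7 arrays (y axis, log2), for the polymerase, ribosomal and other classes, with the class median as a bar and the median of the plastid-encoded photosynthesis genes as a cross. Ribosomal medians are lowest in experiment 2 (−0.60 in Col), while the photosynthesis medians are lowest on the mutant arrays of experiment 3.

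The plastid-encoded photosynthesis genes (psa, psb, pet, atp, ndh and rbcL, 44 probe sets, 43 tested) served as the closest comparison. In soc1-101D they too had no call, with a median fitted difference of −0.38 against −0.24 for the 30 tested members and −0.02 for all tested probe sets. In experiment 2 against 1, 14 of 43 fell and none rose. In experiment 3 against 1, 22 fell and none rose (median −0.73), where the members had 5 that fell and 4 that rose (median 0.07). In experiment 3 against 2, 6 rose and 13 fell (median −0.21), where the members had 8 and 1 (median 0.60). The 3 photosynthesis medians between experiments were negative under the other scalings too. The difference between these groups of genes was not tested.

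Nuclear genes of the same machinery were looked up in 5 lists, with genes given by locus where the annotation has no symbol. Of 32 listed nuclear genes for plastid ribosomal proteins, 8 were named on the array and tested, and none was called in either mutant (median 0.17 in soc1-101D and −0.05 in soc1-2). Their highest and lowest fitted differences in soc1-101D were 0.23 (AT5G47190) and 0.06 (AT1G29070). In experiment 2 against 1 none was called (median −0.07), where 10 of 20 plastid-encoded ones and 16% of all tested probe sets fell. In experiment 3 against 2, 3 rose, where 16.7% of all tested probe sets did, AT5G47190 by 1.18 ± 0.20, AT3G54210 by 0.88 and AT5G65220 by 0.67. These 3 and AT4G01310 (1.04 ± 0.21) were also higher in experiment 3 than in 1, where 25.9% of all tested probe sets were. With no further scaling 2 rose in each of these comparisons, and with quantile normalization 1 rose against experiment 2 and 2 against 1.

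Of 15 listed nuclear Clp and acetyl-CoA carboxylase subunits 2 were tested. CLPP4, a Clp protease subunit, rose by 0.65 and 0.68 in experiment 3 against 1 and 2, where clpP of the plastid was lower than in experiment 1 and not called against 2. The other, AT1G09130, was not called in any comparison. AT1G22700, the 1 tested of 10 listed genes for plastid RNA processing and partners of ycf proteins, rose by 0.70 and 0.81. The calls of CLPP4 and AT1G22700 were lost with no further scaling and with quantile normalization. Of 8 sigma factors and phage-type polymerases, RPOTMP was the 1 named gene and too dim to test. It read 28.0, 90.2 and 136 in Col, 40.5, 91.2 and 121 in soc1-101D and 49.8 in soc1-2. The polymerase-associated proteins were not analysed here.

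Markers of leaf and root were read on every array, with no detection calls to tell signal from background. The summed scaled intensity of the 3 named leaf markers of 6 listed (RCA, LHCB4.1 and LHCB4.2) was 73174.5 and 75464 in experiment 1, 90198 to 95202 in experiment 2 and 56138 to 68621 in experiment 3. It was 56138 to 95202 in Col, 68621 to 90198 in soc1-101D and 56478 in soc1-2. LHCB4.2 fell in experiment 3 by 0.76 against experiment 1 and by 1.32 against 2. LHCB4.1 and RCA were at 0.04 and −0.27 against experiment 1 and at −0.51 and −0.16 against 2, none of these called. The 3 named root markers of 5 listed (PYK10, EXPA7 and EXPA18) summed to 13711 and 16810 in experiment 1, 22538 and 22954 in experiment 2 and 20105 to 21608 in experiment 3, and PYK10 rose from experiment 1 to 2. Neither list had a member called in either mutant. The leaf sum was thus highest in experiment 2, where the median of the ribosomal members was lowest, and lowest in experiment 3. The polymerase and other medians were lowest in soc1-101D of experiment 3 (−0.50 and −0.75). The root sum was lowest in experiment 1. Single markers did not all follow these sums. Against experiment 1, LHCB4.1 and LHCB4.2 were higher in experiment 2 (fitted 0.55 and 0.56, neither called), while RCA was at −0.11. The root sum was nearly all PYK10 (13114 of 13711 in soc1-101D of experiment 1). In experiment 3 against 1, PYK10 was at 0.51, EXPA7 at −0.08 and EXPA18 at −0.28, none called. The part of these tissues in the experiment differences was not tested. None of the 6 named markers was at 0, and flower and seed markers were not analysed here.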

How the data were processed

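The deposited table holds 1 linear intensity per probe set and array. Per the labels the RNA carried a biotin label. Software, background correction and priming were not given in the sources used here. Every array had a 2% trimmed mean between 495.5 and 496.2, as after scaling to a common target. The number of arrays limits the precision.

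From these values each array was brought to 1 common median, 192.7 (the arrays' geometric mean). Before log2, 0.1 times that value (19.3) was added, so that changes of low values come out too small. Probe sets in the dimmest 40% by mean were dropped, leaving 13648. The tests used limma 3.58.1 under R 4.3.3 (lmFit, eBayes; genotype and experiment as fixed terms; 2 residual and 5.62 prior degrees of freedom) and tested on simulated data. The experiment is a block because the labels give its own Col array as each mutant array's baseline. Deviations of the paired arrays correlated at 0.85, 0.74 and 0.82. No label speaks of separate plantings, so a p-value reflects the spread between these samples, possibly technical.

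Genes came from the platform annotation, joined by gene ID to a RefSeq table of TAIR10.1, used for names and gene order. The members and lists were chosen with earlier results of these data known, from 98 listed nuclear genes of which 17 were tested. Named are all polymerase genes, called members, the 3 highest and 3 lowest per comparison, untested members, and in each nuclear list the called or else extreme genes; others are named as examples chosen after their values were seen. Alternatives covered scaling, pseudocount, filter, block, baseline, gene IDs and left-out arrays.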

Additional observations from a re-analysis of the deposited data

How the results depend on the processing

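No member was called in soc1-101D under any alternative run, including no replicate block and quantile normalization, except rps2 without experiment 2 (count of lower members 0 to 1 over left-out experiments, and the median difference −0.51 to −0.11). The soc1-2 median was −0.53 and was 0.052 against soc1-101D of experiment 3, a baseline chosen after the data were seen; with that baseline 0 members were at least 2-fold lower, and with the mean of the 3 Col arrays (no replicate block) 2 were. Between experiments, members lower in 2 than 1 numbered 11, with 2 under no filter on dim probe sets, 6 among members with 1 gene ID (also chosen later) and 3 to 20 over left-out arrays. Members higher in 3 than 1 numbered 4, with 2 under quantile normalization, 2 with no further scaling, 0 with no filter and 0 to 6 over left-out arrays; those lower numbered 5, with 3 under no filter and 2 to 7 over left-out arrays. Members higher in 3 than 2 numbered 8, with 5 under quantile normalization, 0 with no filter and 4 to 17 over left-out arrays; those lower numbered 1, with 0 under no filter and 0 to 3 over left-out arrays. Of 29 called member differences, 4 (rpl23 and rps12 244939_at in 2 against 1, accD and rps12 244939_at in 3 against 1) passed in every alternative, 4 passed with no filter, 21 with quantile normalization and 23 with no further scaling, and none changed sign. The share of all probe sets called fell too with no filter. It was 8.7%, 13.1% and 0% for 2 against 1, 3 against 1 and 3 against 2. In the main setting it was 32.6%, 40.1% and 24.5%, and with quantile normalization 33.2%, 34.8% and 16.4%. It also changed when arrays were left out. The cause of these losses was not tested. A single soc1-2 array and 2 arrays per experiment limit what can be called, and rpoB was not tested under a 60% filter.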
